A study of Homo sapiens with 8 samples.

Results

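Gene-desert regions are the stretches of open chromatin that lie far from every protein-coding gene. They were chosen by position alone. Peaks of all 8 libraries were merged where they overlapped or touched, and a merged region was kept if its midpoint was outside every protein-coding gene of GENCODE version 44 and more than 200 kb from the nearest start site (TSS) of such a gene, on chromosomes 1 to 22. This gave 11461 of 96872 merged regions. The assay was ATAC-seq, which uses Tn5 transposase to tag accessible DNA, on HEK293T, a human embryonic kidney line with the SV40 large T antigen. There were 4 libraries of cells carrying an H2A lentivector and 4 of cells carrying an H2A(E92K) lentivector, here called H2A and E92K. E92K puts a lysine in place of a glutamate of the acidic patch, the nucleosome surface on which many chromatin proteins dock. No further treatment is given, and separate cultures are not stated for the replicates. The p-values therefore reflect the spread among these libraries alone, which may be technical.

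Gene deserts are long stretches with no protein-coding gene. Many flank genes for developmental regulators or neuronal cell-surface proteins and hold enhancers, which act on promoters over long distances, as well as sites for CTCF, the protein that anchors chromatin loops. Other desert sequence is packed in late-replicating, lamina-associated chromatin, and the repeats of centromeres also fall in stretches without coding genes. The rule rests on the annotation, and not every member is a desert in this sense. Of the 11461 regions, 1% lay inside a gene that RefSeq types as protein-coding, 43 lay within 2 kb of an immunoglobulin or T-cell receptor segment, which GENCODE does not type as protein-coding, and 1 lay within 2 kb of a gene that GENCODE types as an artifact.

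The sequences of 6 regions show the kinds of element found. Each is 251 bases of hg38, plus strand, centred on the summit of the strongest peak, and capitals mark a match to any of the 16 motifs searched, which are spelled out further below. The first 4 were open in all 8 libraries. They are a CpG-rich region between NPVF and NFE2L3 (chr7:25862429-25862679), the strongest member of all, 2 regions of the chromosome 13 deserts (chr13:67736763-67737013 beside PCDH9 and chr13:61880927-61881177 beside PCDH20, the latter with a CTCF core), and a region far from any coding TSS (chr4:179867384-179867634, between AGA and TENM3) with no match in the 251 bases shown, though TEAD and SOX sites lie farther from its summit.
NFE2L3 distal region: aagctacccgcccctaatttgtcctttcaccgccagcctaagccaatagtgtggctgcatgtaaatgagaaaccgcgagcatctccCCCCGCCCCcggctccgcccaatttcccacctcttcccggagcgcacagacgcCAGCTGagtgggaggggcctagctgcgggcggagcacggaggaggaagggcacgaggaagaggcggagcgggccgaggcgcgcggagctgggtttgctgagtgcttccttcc
PCDH9 distal region: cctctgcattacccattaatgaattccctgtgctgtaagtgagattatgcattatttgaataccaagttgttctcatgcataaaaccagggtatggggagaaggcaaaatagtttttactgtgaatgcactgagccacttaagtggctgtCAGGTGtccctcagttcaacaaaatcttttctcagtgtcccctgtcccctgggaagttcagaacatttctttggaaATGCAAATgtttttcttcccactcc
PCDH20 distal region: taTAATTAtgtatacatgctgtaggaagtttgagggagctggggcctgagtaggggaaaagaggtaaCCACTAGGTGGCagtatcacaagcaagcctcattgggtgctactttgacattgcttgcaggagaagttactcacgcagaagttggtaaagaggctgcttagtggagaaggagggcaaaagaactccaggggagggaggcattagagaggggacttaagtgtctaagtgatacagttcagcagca
TENM3 distal region: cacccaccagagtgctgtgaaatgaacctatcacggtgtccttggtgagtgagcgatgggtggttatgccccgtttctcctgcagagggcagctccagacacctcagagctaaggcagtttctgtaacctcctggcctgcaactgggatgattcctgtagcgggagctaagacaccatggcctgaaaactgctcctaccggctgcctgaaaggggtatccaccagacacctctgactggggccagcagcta
The other 2 had a peak in every library of 1 group and in none of the other. One was found in H2A only, at IGHV4-34 (chr14:106373454-106373704), and holds a CTCF core. The other was found in E92K only, between TBL1XR1 and KCNMB2 (chr3:178088983-178089233), and holds an AP-1 and a GATA site but no CTCF core.
IGHV4-34 region: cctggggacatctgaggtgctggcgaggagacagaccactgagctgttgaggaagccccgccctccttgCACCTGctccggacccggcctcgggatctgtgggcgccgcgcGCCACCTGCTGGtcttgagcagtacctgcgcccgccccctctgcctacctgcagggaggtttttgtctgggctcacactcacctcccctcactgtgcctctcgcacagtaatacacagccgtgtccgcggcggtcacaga
KCNMB2 E92K-only region: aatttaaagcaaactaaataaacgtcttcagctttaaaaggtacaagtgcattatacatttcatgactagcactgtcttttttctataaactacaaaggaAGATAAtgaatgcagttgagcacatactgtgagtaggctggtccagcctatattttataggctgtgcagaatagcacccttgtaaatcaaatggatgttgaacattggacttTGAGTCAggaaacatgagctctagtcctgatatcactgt

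Sequence that meets the rule made up 663.2 Mb (24.1% of the autosomal bases) and fell into 1014 stretches between neighbouring coding genes, of which 821 held at least 1 region. Open regions were sparser there than elsewhere, at 17.3 per Mb against 39.2 per Mb in the rest of the autosomes. The median stretch held 4 regions, and the 10 with most members held 2098 (18.3%). Of the members 87% had a neighbour in the same stretch within 50 kb, and 173 groups with such spacing and 10 or more members held 4335 regions. No value for unclustered placement was computed, so these counts describe spacing at the given density only. At the rule's limit, the nearest member lay 200002 bp from the TSS of BHLHE22 and the farthest intergenic non-member 199957 bp from that of RBM19, and each was seen in 2 libraries.

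Chromosome 13 stood apart. It held 2310 gene-desert regions (20.2%) in 37.7 Mb of desert, which is 61.2 per Mb, while the other autosomes together had 14.6 per Mb and the next, chromosome 6, had 26. Outside deserts chromosome 13 had 43.1 regions per Mb, close to the 39.1 per Mb of the other autosomes. That is a mean over the chromosome, and such regions reached 96 per Mb between 60 and 70 Mb, as given below. Library by library, desert regions with a peak numbered 24.8 ± 2.11 per Mb on chromosome 13 and 7.21 ± 0.444 per Mb on the other autosomes (SD, n = 8), and chromosome 13 was higher in 8 of 8 libraries (exact two-sided sign-flip permutation p = 0.0078, the smallest that 8 libraries allow). The 8 libraries are of 1 cell line, so this test speaks of repeatability between libraries only.

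**Figure D1:**
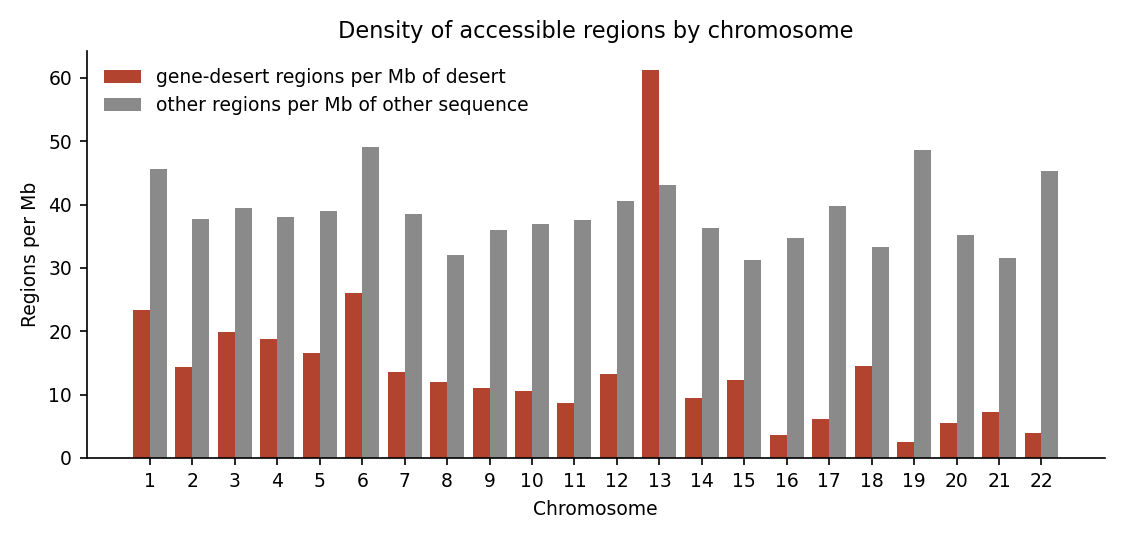
Bars give regions per Mb on each autosome, in red gene-desert regions per Mb of desert sequence and in grey the other regions per Mb of the remaining sequence. Desert density is 61.2 per Mb on chromosome 13 and at most 26 per Mb on every other autosome.

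The dense part of chromosome 13 had edges. In blocks of 10 Mb, desert regions stood at 10.7 to 20.5 per Mb between 20 and 60 Mb, rose to 119.2 per Mb between 60 and 70 Mb, stayed at 85.5 to 90.5 per Mb between 70 and 100 Mb, and were at 7.98 per Mb between 100 and 110 Mb. Regions outside deserts stood at 28.2 to 34.5 per Mb between 20 and 60 Mb, at 96, 95.3 and 86.3 per Mb in the next 3 blocks, at 56.4 per Mb between 90 and 100 Mb, where desert density was still 85.5, and at 13.5 per Mb between 100 and 110 Mb. The local background behind each peak, in fragments per position, was recovered from the peak's fold and p-value. Its median over all peaks of a block, in deserts or not, is given relative to the library's genome-wide background. It was 2.41 to 2.59 over the 8 libraries between 60 and 70 Mb and 1.03 to 1.18 between 100 and 110 Mb. Between 20 and 30 Mb, with 12 desert and 250 other regions, it was 1.63 to 1.83. Between 80 and 90 Mb, with 755 desert and 139 other regions, it was 1.58 to 1.74. The blocks differ in their mix of peaks, so these medians cannot be set against desert density alone. For gene-desert peaks it was 1.9 ± 0.0626 on chromosome 13 and 1.13 ± 0.0363 on the other autosomes, and for the other peaks 2 ± 0.0398 on chromosome 13 and 1.98 ± 0.0569 elsewhere (SD, n = 8). A peak's own fragments add to its local background, and the part of background or DNA copy number in the density was not tested.

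Of the 10 stretches with most regions, 8 lie in this part of chromosome 13, and their neighbours include several genes for neuronal surface proteins. The one between SLITRK5, a synaptic membrane protein gene, and GPC5, a glypican gene, held 311 regions in 3.33 Mb (chr13, gap 87696273 to 91398620). Between an unnamed coding gene and the protocadherin gene PCDH9 were 299 regions in 2.27 Mb (gap 63833054 to 66302833). The densest stretch lay in a gap that starts 12 kb from PCDH20, another protocadherin gene, and held 268 regions in 1.92 Mb, or 139.7 per Mb (gap 61427850 to 63746740). Of these, 118 to 149 had a peak in an H2A library and 109 to 129 in an E92K library, so the groups overlapped. All 268 formed a single group at 50 kb spacing, which ran from 61664799 to 63546179. Further stretches lay between SPRY2, a gene for an inhibitor of growth factor signalling, and SLITRK1 (259 regions), between PCDH9 and KLHL1, a brain-expressed kelch gene (258), between SLITRK1 and SLITRK6 (152), between SLITRK6 and SLITRK5 (139), and between KLHL1 and DACH1, a transcriptional cofactor gene of organ development (126). The other 2 were the stretch between CELF4, a gene for a neuronal RNA-binding protein, and PIK3C3 on chromosome 18 (166 regions, 41.6 per Mb) and that between CITED2, a transcriptional coregulator gene, and NMBR on chromosome 6 (120 regions, 50.9 per Mb). The median local background in these 10 stretches ranged from 1.3 to 3.18 times the genome-wide one over stretches and libraries.

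**Figure D2:**
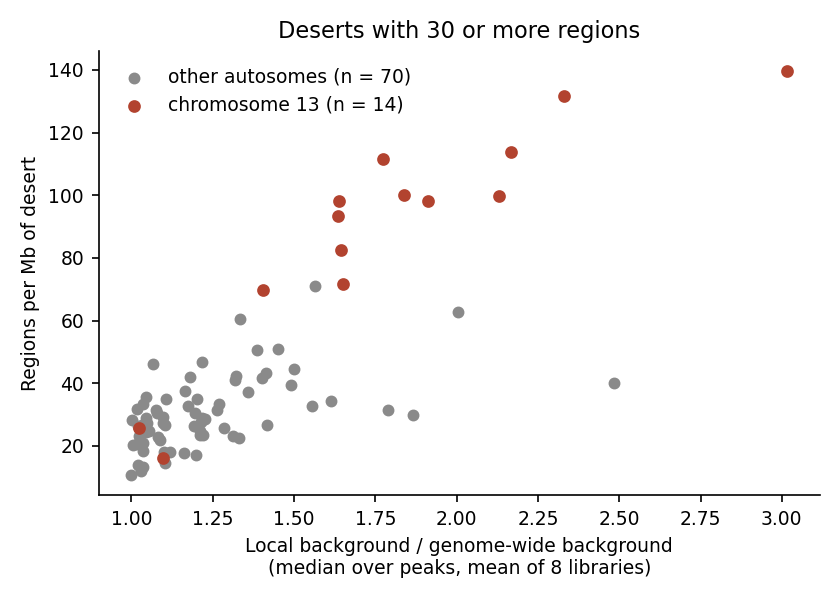
Each point is a stretch with 30 or more gene-desert regions (14 on chromosome 13 in red, 70 on the other autosomes in grey), with the median local background of its peaks relative to the genome-wide background on the x axis and regions per Mb on the y axis. The points rise to the right, up to 139.7 per Mb at a ratio of 3.02.

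Over the 84 stretches with 30 or more regions, density and local background had a Pearson r of 0.80 and a Spearman rho of 0.71, and over the 70 outside chromosome 13 an r of 0.52 and a rho of 0.57. Both measures come from the same peak lists, and stretches with few regions are left out, so these values are a description. Among the 5 longest stretches, that between ANKRD30B and ROCK1 on chromosome 18, with 5.85 Mb of desert, held no region, that between ZNF716 and ZNF722 on chromosome 7 held 3, that between KCNJ18 and WSB1 on chromosome 17 held 4, and that between ZNF337 and DEFB115 on chromosome 20 held 14. These 4 contain the centromere of their chromosome. The fifth, between the protocadherin gene PCDH7 and ARAP2 on chromosome 4, held 51 regions in 4.78 Mb. Of 204 stretches with at least 1 Mb of desert, 9 held no region.

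The genes beside occupied stretches were described with name lists. Genes for developmental regulators, picked by the start of their symbols (such as SOX, FOX, PAX and IRX), were 84 of the 1445 flanking genes (5.81%) and 326 of all 19103 autosomal coding genes (1.71%). Adhesion, synapse and channel genes (such as CDH, PCDH, CNTN, SLITRK and KCN) were 96 of the flanking genes (6.64%) and 298 of all (1.56%). As 821 of the 1014 stretches were occupied, these shares largely describe which genes border long gaps in the annotation. Genes beside the 193 stretches without a region were not counted apart, so the shares say nothing about openness. Stretches beside the second list held 3682 regions (32.1%) at 22.2 per Mb, against 15.6 per Mb in the remaining stretches. The chromosome 13 stretches beside PCDH9 and the SLITRK genes count among them, and these named above had 82.5 to 131.7 regions per Mb. No density without chromosome 13 was computed for the lists, so this gap cannot be read as general to such neighbours. Stretches beside developmental regulators held 1042 regions at 18.5 per Mb, against 17.2 per Mb in the rest.

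Gene-desert regions recurred less often from library to library than other regions. Of the 11461, 2475 (21.6%) had a peak in all 8 libraries and 4089 (35.7%) in 1 library, while 40.4% of the 82004 other autosomal regions had a peak in all 8 and 25.3% in 1. The merged region was wider with recurrence, from a median of 319 bp in members seen once to 961 bp in those seen in all 8. Other autosomal regions went from 313 to 1036 bp. A merged region spans the peaks of every library that shares it, so its width grows with merging and does not measure peak width. On chromosome 13 15.4% of members recurred in all 8, on the other autosomes 23.2%. Absence from a list means that no peak passed there, and such a region may still have been open.

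**Figure D3:**
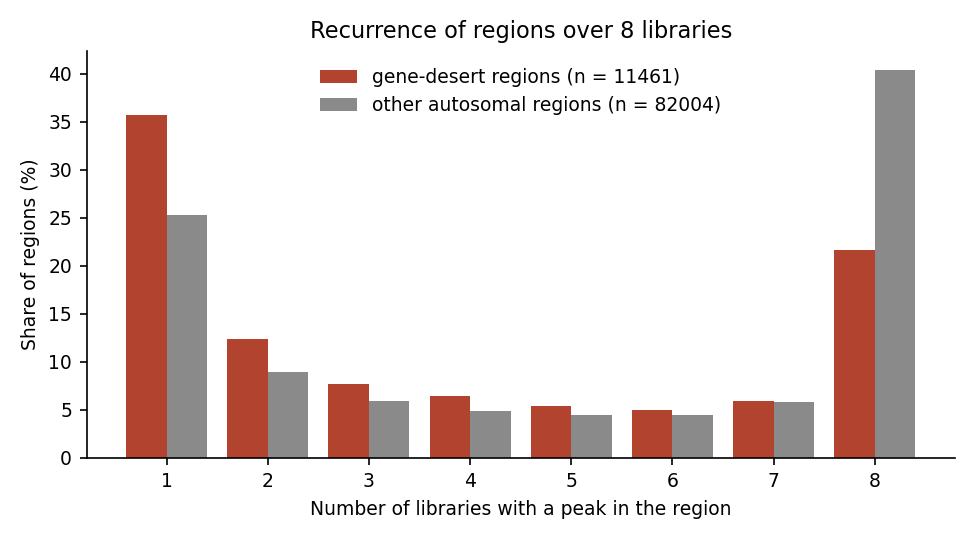
Bars give the share of gene-desert regions (red, 11461) and of other autosomal regions (grey, 82004) with a peak in 1 to 8 libraries. Gene-desert regions lead at 1 library (35.7% against 25.3%) and trail at 8 (21.6% against 40.4%).

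Distance from genes was ordered with recurrence and sequence, and the rule's limit was no step in it. Among intergenic regions 1 to 50 kb from a coding TSS 37.3% were present in all 8 libraries, at 100 to 200 kb 29.8%, at 200 to 300 kb 24.7% and beyond 1000 kb 16.4%. Mean GC content within 250 bp of the summit went from 49.2% at 1 to 50 kb through 44.5% at 200 to 300 kb to 41.7% beyond 1000 kb. The CTCF core went from 9.21% of regions through 4.77% to 3.36%. These are shares of regions in bins and were not tested.

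**Figure D4:**
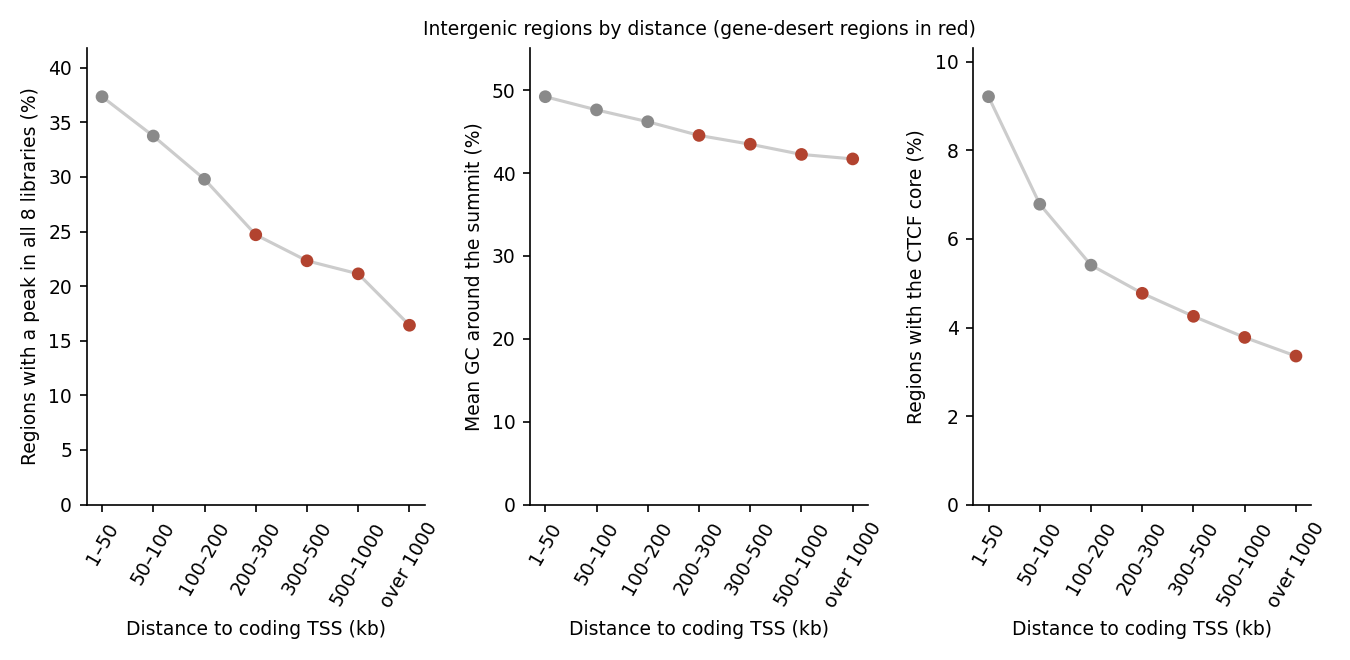
Intergenic autosomal regions in 7 bins of distance to the nearest coding TSS, with the share present in all 8 libraries, the mean GC content and the share with the CTCF core on the y axes (gene-desert bins in red). All 3 fall with distance, recurrence from 37.3% to 16.4%.

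Gene-desert peaks were weaker and narrower than the other autosomal peaks of the same list. Their median rank by p-value stood at the 32.5 ± 0.646 percentile of the list, that of the others at 52.3 ± 0.102, and the median width was 475 ± 6.58 bp against 598 ± 10.7 bp (SD, n = 8). They were lower in 8 of 8 libraries for both measures (exact two-sided sign-flip permutation p = 0.0078, Benjamini-Hochberg adjusted p = 0.0078 over 20 measures). Peaks at chromosome 13 deserts ranked lowest, with medians between the 22nd and 25.5th percentiles over the libraries, against 33.5 to 36.7 for the other gene-desert peaks. Their lower rank did not go with fewer fragments at the summit. The recovered medians were 19 to 21 on chromosome 13 and 17 to 21 for the other gene-desert peaks. The authors' fold of gene-desert peaks had medians of 4.31 to 4.91 over the 8 lists. It depends on each list's background, so it mainly describes peaks within their own list. Among members found in all 8 libraries 18 of 2475 (0.727%) stood above the 90th percentile in every list, and 12.4% of the other regions found in all 8 did.

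Gene-desert peaks were AT-rich and poor in CpG. GC content within 250 bp of the summit was 43.8 ± 0.176% against 52.8 ± 0.229% in the other autosomal peaks, and the observed over expected CpG ratio was 0.228 ± 0.0016 against 0.417 ± 0.0066 (SD, n = 8). Few members looked like CpG islands: 162 (1.41%) had a GC content over 50% and a CpG ratio over 0.6, against 17.8% of other autosomal regions. Genes for long noncoding RNAs (lncRNAs) lay beneath many of them: 3816 members (33.3%) had their midpoint inside one, against 26.3% of intergenic regions 1 to 200 kb from a coding TSS. Fewer members sat within 1 kb of an lncRNA start, 288 (2.51%) against 5.4%. Among members found in all 8 libraries this share was 5.13%.

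A set of 16 motifs was searched on both strands within 250 bp of each summit. They are the CTCF core (by name), the AP-1 site TGANTCA, the cyclic AMP response element TGACGTCA, the GATA site AGATAA, the TEAD site GGAATG, the nuclear factor I palindrome (by name), the E-box CAGCTG, the ZEB site CAGGTG, the ETS site CCGGAAGT, the SP site GGGGCGGGG, the NRF1 site (by name), the RUNX site TGTGGTTT, the forkhead (FOX) site TGTTTAC, the SOX site ACAATGG, the octamer ATGCAAAT and the homeodomain site TAATTA. Some spellings of the CTCF core contain the ZEB site, and some of the nuclear factor I palindrome contain the E-box, ZEB or TEAD site. The other motifs do not contain each other. A match is a run of letters, not binding. Of all 96872 merged regions 5.68% held the CTCF core, 34% the ZEB site, 26.6% the E-box, 25.2% the GATA site, 25.1% the TEAD site, 15.9% the AP-1 site, 11.6% the homeodomain site and 7.96% the FOX site. The SP site was in 7.03% of them, the SOX site in 5.38%, the RUNX site in 3.43%, the octamer in 2.67%, the ETS site in 1.54%, the cyclic AMP response element in 0.844%, the NRF1 site in 0.403% and the nuclear factor I palindrome in 0.182%. All 16 shares differed between gene-desert and other autosomal peaks in the same direction in 8 of 8 libraries (exact two-sided sign-flip permutation with Benjamini-Hochberg adjustment, adjusted p = 0.0078 each). AT-rich sites were more frequent in deserts: the homeodomain site in 17 ± 0.466% against 9.56 ± 0.241% of peaks, the FOX site in 11.5 ± 0.579% against 6.99 ± 0.158%, the GATA site in 33.4 ± 0.822% against 21.1 ± 0.448%, and the octamer in 3.5 ± 0.124% against 2.41 ± 0.0374% (SD, n = 8). The AP-1 site was more frequent too, in 18.2 ± 0.651% against 14.1 ± 0.228%. GC-rich promoter sites were scarce: the SP site in 1.18 ± 0.0733% against 11.6 ± 0.371%, the ETS site in 0.271 ± 0.0417% against 2.58 ± 0.0859%, and the NRF1 site in 0.0545 ± 0.0088% against 0.719 ± 0.027%. Against intergenic peaks 1 to 200 kb from a coding TSS the direction was the same for 15 of 16 motifs, among them the homeodomain site (17% against 11%), the FOX site (11.5% against 7.93%), the GATA site (33.4% against 24.5%) and the SP site (1.18% against 4.36%), in 8 of 8 libraries each (exact permutation, adjusted p = 0.0082). The TEAD site turned round: it was in 26.3% of gene-desert peaks, 23.9% of all other autosomal peaks and 26.6% of these intergenic peaks, below the last in 7 of 8 libraries (exact permutation, adjusted p = 0.0391). GC content differs between the sets, as given above, and its part in the shares was not tested.

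The CTCF core was found in 6.25 ± 0.379% of gene-desert peaks and 7.64 ± 0.17% of the other autosomal peaks (SD, n = 8, adjusted p = 0.0078, same exact test). With only peaks of q-values of 1e-05 or less this difference shrank from -1.39 to -0.166 points and no longer passed (p = 0.359, exact permutation). Its sign then varied between libraries. Gene-desert peaks were higher in H2A replicates 1 to 3 (9.55%, 9.49% and 9.78% against 9.3%, 9.21% and 9.3%). They were lower in H2A replicate 4 (8.81% against 9.02%). In E92K replicates 1 to 4 they were lower too (8.14%, 8.18%, 8.6% and 7.93% against 8.91%, 8.68%, 8.82% and 8.57%). The difference between gene-desert and other peaks was -0.408 points where only gene-desert peaks outside chromosome 13 were taken (p = 0.0078, exact permutation). Those of chromosome 13 then counted among the other peaks. Against the intergenic peaks 1 to 200 kb from a TSS, with the core in 11 ± 0.281%, gene-desert peaks were lower in 8 of 8 libraries (exact permutation, adjusted p = 0.0082 over 20 measures). Among gene-desert regions the core rose with recurrence, from 1.27% of those in 1 library to 9.21% (228 of 2475) of those in all 8, and all other autosomal regions went from 1.54% to 8.76%. On chromosome 13 1.13% of members held the core, on the other autosomes 4.85%.

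The strongest members open in all 8 libraries were of distinct kinds, ranked by the lowest percentile each had in any list. The first lay 289.6 kb from NFE2L3, a gene for a stress-response transcription factor, on chromosome 7 (25862136 to 25863061), with a GC content of 60.3% and a CpG ratio of 0.792. Its fold was 7.58, 8.29, 8.59 and 8.8 in H2A replicates 1 to 4 and 8.91, 8.17, 7.79 and 8.73 in E92K replicates 1 to 4, so the groups overlapped, and its lowest percentile in any list was 99. A region on chromosome 5 (70400970 to 70401670), 351.6 kb from SMN2, the motor neuron survival gene, had a GC content of 75.2% and folds of 19.7 to 25.1. It lies in a duplicated part of the genome, where reads of near-identical copies are hard to assign. On chromosome 2 (41840575 to 41841526) a CpG-rich region stood 207 kb from PKDCC, a secreted kinase gene of skeletal growth, with a fold of 11.7 ± 0.702 (SD, n = 8). Other CpG-rich members lay on chromosome 8 (48513976 to 48515313, 220.6 kb from CLXN) and on chromosome 10 (31603133 to 31604311, 284.5 kb from ZEB1), the latter inside a gene that RefSeq types as protein-coding. The 4 from chromosome 13 were different, with CpG ratios of 0.0479 to 0.269. They were the PCDH9 and PCDH20 regions printed above (67736449 to 67737434, fold 9.38 ± 0.506, and 61880609 to 61881444, fold 10.1 ± 0.77), a region 206.2 kb from SPRY2 (80132757 to 80134225, fold 9.15 ± 0.213) and one 354.2 kb from DACH1 (72220944 to 72221818, fold 12.4 ± 0.622). The other was a 2028 bp region on chromosome 9 (79256310 to 79258337), 314.4 kb from the corepressor gene TLE4. Its fold was 6.33, 6.35, 5.62 and 6.99 in H2A replicates 1 to 4 and 7.24, 7.24, 7.54 and 7.65 in E92K replicates 1 to 4. These ranges do not overlap, but the median fold of gene-desert peaks also ran from 4.31 to 4.53 over the H2A lists and from 4.4 to 4.91 over the E92K lists. The difference at this region was picked out after its values were seen and was not tested.

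Some members open in all 8 libraries lay more than 2 Mb from the nearest coding TSS. The most distant, on chromosome 21 (5154685 to 5155114), was 5366.7 kb from TPTE with folds of 21.2 to 26.3. It is the member beside a gene typed as an artifact, and RefSeq has protein-coding models on both sides of it. The next was the TENM3 region printed above (chromosome 4, 179867222 to 179867930), 2375.8 kb from the TSS of that teneurin gene. Its fold was 11.1, 11.2, 11.7 and 13.8 in H2A replicates 1 to 4 and 10.6, 12.1, 12.9 and 11.3 in E92K replicates 1 to 4, with no separation of the groups. The remaining 3 lay in the stretch between PCDH7 and ARAP2 on chromosome 4, 2319.9 to 2369.5 kb from a TSS, and had mean folds of 8.2 to 8.82. One of these (33060824 to 33061718) held the CTCF core.

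The labels' 2 groups pose the question of whether desert regions differ in accessibility between cells with either histone. Counts of gene-desert regions overlapped between the groups. They were 5358, 5118, 5438 and 5755 in H2A replicates 1 to 4 and 5553, 6032, 5338 and 4953 in E92K replicates 1 to 4, a mean of 5417.3 ± 263 against 5469 ± 450 (SD, n = 4 each, exact two-sided permutation p = 0.857). E92K replicate 2 was the highest and E92K replicate 4 the lowest, and these were also the longest and the shortest E92K list, with 61850 and 55527 peaks. The share of a list's peaks in gene-desert regions was 9.05%, 9.02%, 9.33% and 9.38% in H2A and 9.63%, 9.84%, 9.37% and 9.02% in E92K (exact permutation p = 0.257, adjusted p = 0.386 over 3 measures). With lists of equal length, the strongest 55527 peaks of each, the groups separated: 8.64%, 8.78%, 9.01% and 8.75% in H2A against 9.37%, 9.2%, 9.13% and 9.02% in E92K. That difference of 0.386 points was narrow at its edge (9.01% and 9.02%) and had an exact permutation p of 0.0286 before adjustment, the smallest that 70 assignments allow. Median width did not separate the groups (472 ± 3.59 bp against 478 ± 8.02 bp, SD, n = 4 each, exact permutation p = 0.2). The chromosome 13 share of desert regions was alike, 17.2 ± 1.07% in H2A and 17.2 ± 0.442% in E92K (SD, n = 4 each, exact permutation p = 0.914). The genome-wide background, which stands for relative depth, was 2.52 to 2.93 fragments per position in H2A and 2.23 to 2.68 in E92K, and its part in these values was not tested.

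**Figure D5:**
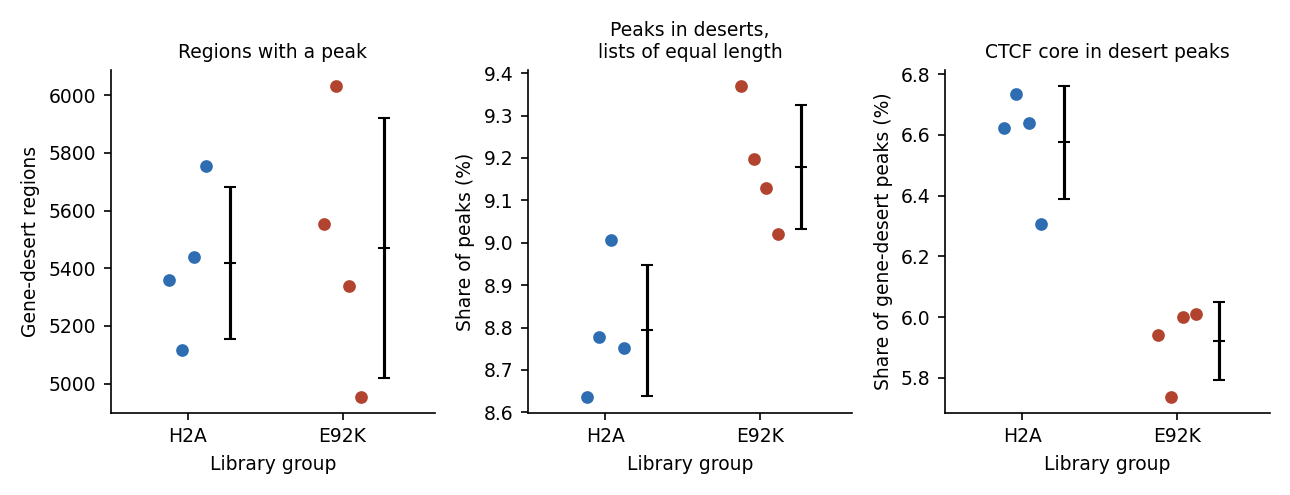
Each point is a library, H2A in blue and E92K in red, and the black mark is the mean with its SD (n = 4). The groups overlap in the number of gene-desert regions with a peak (left), separate narrowly in the share of peaks in deserts with lists of equal length (middle), and separate in the share of gene-desert peaks with the CTCF core (right). The axes do not start at 0.

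Motif content of gene-desert peaks separated the groups at 3 of 16 motifs, none of which passed adjustment. In the other autosomal peaks 5 of 16 separated them (CTCF, GATA, FOX, ZEB and nuclear factor I), and none passed either (exact permutation, adjusted p = 0.0914 each). The CTCF core was in 6.62%, 6.74%, 6.64% and 6.31% of gene-desert peaks in H2A replicates 1 to 4 and in 5.94%, 5.74%, 6% and 6.01% in E92K replicates 1 to 4. Every E92K library was thus below every H2A library (difference -0.654 points, exact two-sided permutation p = 0.0286, adjusted p = 0.152). In the other autosomal peaks of the same libraries it was -0.264 points, and the difference between these differences, -0.39 points, had an exact permutation p of 0.0286 and an adjusted p of 0.457 over 16 motifs. The GATA site was in 32 to 33.4% of gene-desert peaks in H2A and 33.5 to 35% in E92K, and the FOX site in 10.7 to 11.37% and 11.37 to 12.3%, each with a narrow edge (exact permutation p = 0.0286, adjusted p = 0.152). In the other autosomal peaks the means were 20.8% and 21.5% for GATA and 6.87% and 7.11% for FOX. Over the alternatives the unadjusted exact p ranged from 0.0286 to 0.171 for CTCF, to 0.229 for GATA and to 0.286 for FOX. The CTCF group difference was smallest over 100 kb (-0.563 points) and largest with q-values of 1e-05 or less (-1.2 points). The difference between differences was -0.308 and -0.733 points in these settings. Its unadjusted exact permutation p ranged from 0.0286 to 0.457 over the alternatives. GC content of gene-desert peaks was 43.9 ± 0.0654% in H2A and 43.7 ± 0.162% in E92K (SD, n = 4 each, exact permutation p = 0.0571, adjusted p = 0.114), and its part in the motif shares was not tested.

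A peak in all 4 libraries of a group and in none of the other was found at 58 members. The H2A-only members numbered 26 (0.227%), where the same pattern was found at 0.184% of all merged regions, and the E92K-only members 32 (0.279%), where it was found at 0.139% of all. The H2A-only share was thus near its background. Among other autosomal regions 147 were H2A-only and 98 E92K-only, and whether deserts differ from them was not tested. With q-values of 1e-05 or less in every list the desert counts were 16 and 35 of 6132, against 0.216% and 0.224% of all regions in that setting. With lists of equal length they were 23 and 28 of 10036, against 0.169% and 0.176% of all. By Fisher's exact test the smallest p per region is 0.0286, and only this pattern reaches it, so the 58 members below 0.05 unadjusted are the same ones. With 313 of all 96872 regions at that p, none could pass Benjamini-Hochberg adjustment, and none of the 11461 members did. The test therefore adds nothing to the counts. Looser patterns were balanced: 3778 members (33%) had a peak in more H2A libraries and 3830 (33.4%) in more E92K libraries, against 27.5% and 23.1% of the other regions. Of the members, 171 (1.49%) were ahead by 3 or 4 libraries in H2A and 189 (1.65%) in E92K, against 1.35% and 1.09% of the other autosomal regions. The 58 members were weak: the median of their lowest percentile was 11.9 for H2A-only and 9.7 for E92K-only regions. Mean GC content was 44.8% in the H2A-only and 39.4% in the E92K-only members. The CTCF core was found in 4 and 0 of them, against 4.1% of all gene-desert regions.

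The H2A-only members were led by a region of the immunoglobulin heavy chain locus (chromosome 14, 106373479 to 106373809), with folds of 9.14, 10.2, 8.49 and 6.42 in H2A replicates 1 to 4. Another member of the same pattern lay in that locus (106417559 to 106417903, fold 5.77 ± 0.684, SD, n = 4) and also held a CTCF core. Others lay between SLC35B3 and TFAP2A on chromosome 6 (9412907 to 9413377, fold 7.34 ± 0.628), between TBC1D22A and TAFA5 on chromosome 22 (47452256 to 47452659, fold 5.29 ± 0.545), and between STIM2 and PCDH7 on chromosome 4 (28073844 to 28074386, fold 5.01 ± 0.813). The other named ones lay between SPDYE21 and AUTS2 (chromosome 7, 68250071), and nearest to CITED2 (chromosome 6, 139962475), the synaptic adhesion gene LRFN5 (chromosome 14, 42224201) and CA8 (chromosome 8, 59921516), with mean folds of 3.8 to 5.74.

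Of the E92K-only members, 8 are named here. Between TBL1XR1 and the potassium channel subunit gene KCNMB2 on chromosome 3, a region with AP-1 and GATA sites (178088922 to 178089225) had folds of 3.39, 4.44, 4.34 and 4.05. A region between SPCS3, whose TSS was nearest, and the lymphatic growth factor gene VEGFC (chromosome 4, 176526672 to 176527106) had a fold of 4.74 ± 0.263, and one between ZPLD1 and the adhesion gene ALCAM (chromosome 3, 103795864 to 103796441) 4.67 ± 0.97. The remaining 5 had as nearest TSS that of UACA (chromosome 15, 70426100), GPC5 (chromosome 13, 90105921), ANTXR2 (chromosome 4, 79869741), RASEF (chromosome 9, 82829028) and PRR16 (chromosome 5, 120098676). These TSSs were 202.6 to 1292.3 kb away, and the mean folds were 4.13 to 4.72. Their lowest percentiles in any list were 26.97 at most, against 50.9 among the H2A-only members.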

How the data were processed

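ATAC-seq peak lists of 8 HEK293T libraries, 4 H2A and 4 E92K by their titles, were analysed. Reads were aligned to hg38, per the labels (aligner, peak caller, Tn5 shift and handling of duplicates: not given in the sources used here). Peaks were called per sample. The deposited score per peak is a whole number made from the q-value and was not used further. The deposited fold was taken as the ratio of a summit to its local background, with the same constant added to both. The deposited p-values and q-values are on the −log10 scale, and the smallest −log10 q was 2. Peak calls without read totals limit precision, and depth was read from the background recovered by inverting the fold and the Poisson p-value.

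A peak was a distinct interval, represented by its summit of smallest p-value, and its percentile is its rank by p-value within the list. Annotation was GENCODE version 44 (TSS of basic protein-coding transcripts). Group means were compared by exact two-sided permutation over 70 assignments and gene-desert with other peaks by exact sign flips over libraries, with Benjamini-Hochberg adjustment per family (Python 3.11.15, pandas 2.3.3, numpy 2.4.6, scipy 1.17.1, pyfaidx 0.9.0.4). Functions were tested on simulated data. The planned share of repeat-masked bases was not computed because the genome copy used is in capitals throughout. Regions named are the 10 strongest in all 8 libraries by lowest percentile, the 5 most distant in all 8, the 10 strongest per direction of the group-only pattern (1 H2A-only and 2 E92K-only regions of these are not reported here), the 10 stretches with most regions and the 5 longest. Alternatives were other distances, gene sets, q-values, list lengths, merging gaps, coverage and motif windows, and each library left out. Members, lists and tests were chosen with earlier results of these data known.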

Additional observations from a re-analysis of the deposited data

Results flagged for a closer look

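Within each group of 4 libraries, 22 measures of gene-desert peaks were checked for a library far from the other 3, giving 44 checks, of which chance flags about 1 in 20. A gap past Dixon's 95% limit was found 3 times. The GATA site was in 34.98% of gene-desert peaks in E92K replicate 4 and in 33.5 to 33.7% in the other E92K libraries. The ZEB site was in 28.97% in E92K replicate 1 and in 27.1 to 27.4% in the other E92K libraries. The TEAD site was in 25.95% in H2A replicate 3 and in 26.4% in the other H2A libraries. No group difference in a motif share differed between gene-desert and other autosomal peaks after Benjamini-Hochberg adjustment (exact permutation tests of 16 motifs, smallest unadjusted p 0.0286 for CTCF, adjusted p = 0.457).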

How the results depend on the processing

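The share of gene-desert regions present in all 8 libraries, 21.6% as reported, was 24.3% at a distance over 100 kb, 19.3% over 500 kb, 17.3% with genes of every type, 28% with q-values of 1e-05 or less, 23% with lists of equal length, 11.2% where peaks had to cover 50% of a region, 23.2% outside chromosome 13 (chosen after seeing the data) and 23.1 to 23.5% with a library left out. Regions per Mb, 17.3 as reported, were 19.2, 15.1, 9.25, 15.1 and 14.6 at over 100 kb, over 500 kb, the stricter q-value, equal lists and outside chromosome 13, and 16.4 to 16.8 with a library left out. With genes of every type 735 regions were left, 2 H2A-only and 3 E92K-only. Over 500 kb 5171 were left, 18 H2A-only and 11 E92K-only. In both settings the shares over all merged regions stayed at 0.184% and 0.139%. At the stricter q-value 16 of 6132 were H2A-only, against 0.216% of all. With a library left out, which loosens the pattern to 7 libraries, the counts were 34 to 51 and 42 to 61. The shares over all regions then were 0.284 to 0.392% and 0.23 to 0.34%. The difference E92K minus H2A in desert regions per library turned to -48.3 without H2A replicate 2 and to -136 without E92K replicate 2, and was at most 225.1 without E92K replicate 4. The difference in width was 3.42 to 9.42 bp with a library left out, and without E92K replicate 1 its exact permutation p was 0.0286. The difference in the desert share was 0.386 points with lists of equal length, 0.0879 over 500 kb, 0.0292 with genes of every type, 0.413 over 100 kb, and 0.149 (without E92K replicate 2) to 0.421 (without E92K replicate 4) with a library left out, against 0.272 as reported. The cause of these changes was not tested. Chromosome 13 stood 2.64 to 5.01 times above the other autosomes over the alternatives. Replicate numbers do not pair the libraries (correlations of deviations between H2A and E92K libraries from -0.0114 to 0.0097). With the replicate block the difference in desert regions was 51.8 per library (exact sign-flip permutation p = 0.75), and CTCF (-0.654 points), GATA (1.04) and FOX (0.896) each had an exact permutation p of 0.125, the smallest 4 pairs allow. Members seen in 1 library were the narrowest merged regions, and the part of depth in their absence elsewhere was not tested.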
